A study of Apis mellifera with 24 samples.

Results

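The small RNA libraries of honey bee queen ovaries were compared between 9 mated and 3 virgin queens, miRNA by miRNA. The deposited table listed 178 miRNAs, of which 166 were known honey bee miRNAs and 12 had been predicted by the authors, and the 106 that reached at least 10 read counts in at least 3 of the 12 libraries were tested. The other 72 were described only. The queens were Apis mellifera ligustica sisters of a single colony, and each library came from the ovary of 1 queen. Virgin queens had not mated. The mated queens had all been instrumentally inseminated from the same semen source and formed 3 groups of 3: egg-laying queens, which were laying; egg-laying inhibited queens, which had been caged for 7 days so that they could not lay; and egg-laying recovery queens, which were released after 7 days in the cage and laid again. Insemination and a history of laying were shared by every mated queen, and their parts in a difference cannot be told apart. Age at sampling may have differed too, as caging took up extra days.

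MicroRNAs are short RNAs that are cut from hairpin precursors and guide Argonaute proteins to messenger RNAs, mostly through their bases 2 to 8, the seed, and so lower the output of those messengers. Neighbouring hairpins are often transcribed together, and in insects several miRNAs act in the ovary: in Drosophila, miR-184 is needed for female germline development, miR-989 for the migration of border cells in the egg chamber and miR-318 acts in oogenesis. Queen honey bees have ovaries of many ovarioles that fill with growing follicles once laying begins, so the tissue sampled from a virgin queen and from a laying queen differs in its mix of cells. Fewer cells of a type and less RNA per cell cannot be told apart in these bulk libraries.

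The mature sequences of 5 tested miRNAs stood in the study's list of PCR primers, whose forward primers carry the mature sequence in DNA letters, and they are shown because they cover both directions of change described here. They run 5′ to 3′ with the seed, bases 2 to 8, in capitals.
miR-3791: tCACCGGGtaggattcatcca
miR-263a: gTAAATGGcactggaagaattcac
miR-279c: tGACTAGAgtcacactcgtcca
miR-100: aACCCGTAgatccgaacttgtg
miR-125: aTCCCCTGagaccctaacttgtga
The first 3 were higher in mated queens and the last 2, which belong to the let-7 cluster, were lower, as described below. The 5 seeds differed from one another, and families are given by name for the other miRNAs.

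Depth and composition differed between the groups. The virgin libraries held 1510420 to 2473711 miRNA counts and the mated libraries 128749 to 430457. Depth, which here means this total of miRNA counts, and mating status cannot be told apart except by drawing fewer reads. Whether the totals reflect fewer reads sequenced or a smaller miRNA part of the small RNA was not tested. Higher and lower therefore mean relative to the other miRNAs. When every library was thinned to about 128749 counts, 110 to 112 miRNAs were detected in virgin and 112 to 122 in mated libraries, against 158 to 163 and 113 to 141 at full depth. The library of virgin queen 2 stood apart from the other virgin libraries. Its counts differed from those of virgin queens 1 and 3 with a chi-square per degree of freedom of 1367 and 1499.9, against 49.7 between virgin queens 1 and 3. Within the mated groups it was 10.2 to 45.5, but it grows with depth, so virgin and mated pairs cannot be compared by it. The Spearman correlations of virgin queen 2 with virgin queens 1 and 3 were 0.972 and 0.966, against 0.996 between those 2. Of the 38 miRNAs that were higher in mated queens under both scalings explained below, 11 were more than 2-fold higher in virgin queen 2 than in either other virgin queen, against 12 of all 106 tested. The results are therefore given with and without this library where it moved them. The library was singled out after its values were seen, and 2 virgin libraries remain without it.

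The most abundant miRNA, miR-276, took a smaller share of the ovary counts in mated than in virgin queens. Its share was 61.0%, 45.7% and 61.3% in virgin queens 1, 2 and 3. It was 29.0% to 41.8% in the mated queens, with a median of 36.5%, so the groups did not overlap. The means were 56.0% ± 8.94 (SD, n = 3) and 35.9% ± 4.77 (SD, n = 9), a difference of -20.1 percentage points (exact permutation test, two-sided, p = 0.00455, the smallest that its 220 permutations can give). Without virgin queen 2 the difference was -25.2 percentage points, with p = 0.0182 in an exact permutation test of 55 permutations, again the smallest possible. Counting error was small beside these differences, as the 95% Wilson interval of the shallowest library ran from 29.8% to 30.3%. Within the mated queens the share was 29.0% to 31.6% in the egg-laying group, 36.2% to 41.7% in the inhibited group and 36.5% to 41.8% in the recovery group.

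**Figure D1:**
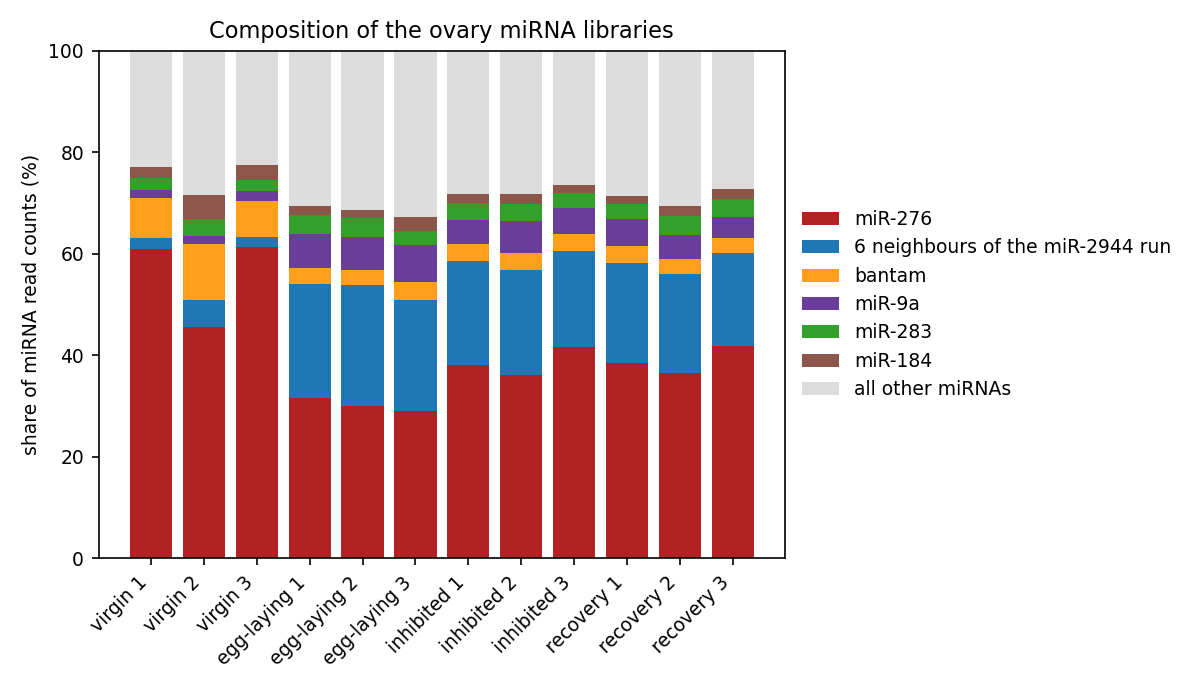
Share of miRNA read counts (%) in each of the 12 ovary libraries, stacked by miRNA, with all other miRNAs in grey. The miR-276 block was 45.7% to 61.3% high in virgin and 29.0% to 41.8% high in mated libraries, and the block of miR-2944 and its 5 neighbours was 2.06% to 5.16% and 18.4% to 23.8% high.

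The evenness of the libraries followed miR-276. The effective number of miRNAs, which is the exponential of the Shannon entropy of the shares, was 7.04, 11.3 and 6.96 in virgin queens 1, 2 and 3 and 13.2 to 18.9 in mated queens (means 8.45 ± 2.51 and 15.6 ± 1.91, SD; exact permutation test, two-sided, p = 0.00455). Among the remaining miRNAs, with miR-276 left out of every library, the effective number was 26.1 ± 1.31 in virgin and 26.3 ± 0.701 in mated queens, a difference of 0.215 (exact permutation test, p = 0.727). The same quantity after thinning, with miR-276 included, was 8.48 and 15.6. Because a large share that falls raises all other shares, every comparison below was made on 2 scales: with TMM factors, which set the scale so that the bulk of the miRNAs shows little change, and with library size alone, which compares shares of all counts. Log2 changes are mated minus virgin with their standard error.

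With TMM factors 83 of the 106 tested miRNAs were called at an adjusted p below 0.05 (78.3%), 38 higher (35.8%) and 45 lower (42.5%) in mated queens. With library size alone 80 were called (75.5%), 51 higher (48.1%) and 29 lower (27.4%). The share of calls that were higher was thus 45.8% on the first scale and 63.8% on the second, and the median change over all tested miRNAs was -0.12 and 0.31. Only direction calls made on both scales are used as rises or falls here: 67 miRNAs (63.2%) were called in the same direction on both, 38 higher (35.8%) and 29 lower (27.4%). None was called in opposite directions, 16 were lower with TMM factors only, 13 were higher with library size alone only, and 10 were called on neither scale. For 50 of the 67, 33 higher and 17 lower, the 9 mated and the 3 virgin libraries did not overlap on either scale. Of all 106 tested, 61.3% did not overlap with TMM factors and 53.8% did not with library size alone. A change of at least 4-fold on both scales was seen in 24 of the 67, 15 higher and 9 lower, and 4 of these 9 were among the miRNAs that passed the count minimum only through the virgin libraries. Of the 106, 15 passed it only in this way, through libraries that were also deeper, and 8 of these were called lower and 2 higher with TMM factors. These 15 included 6 of the 29 falls and 2 of the 38 rises called on both scales. Among the 91 that passed it through mated libraries, 36 were higher and 37 lower.

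**Figure D2:**
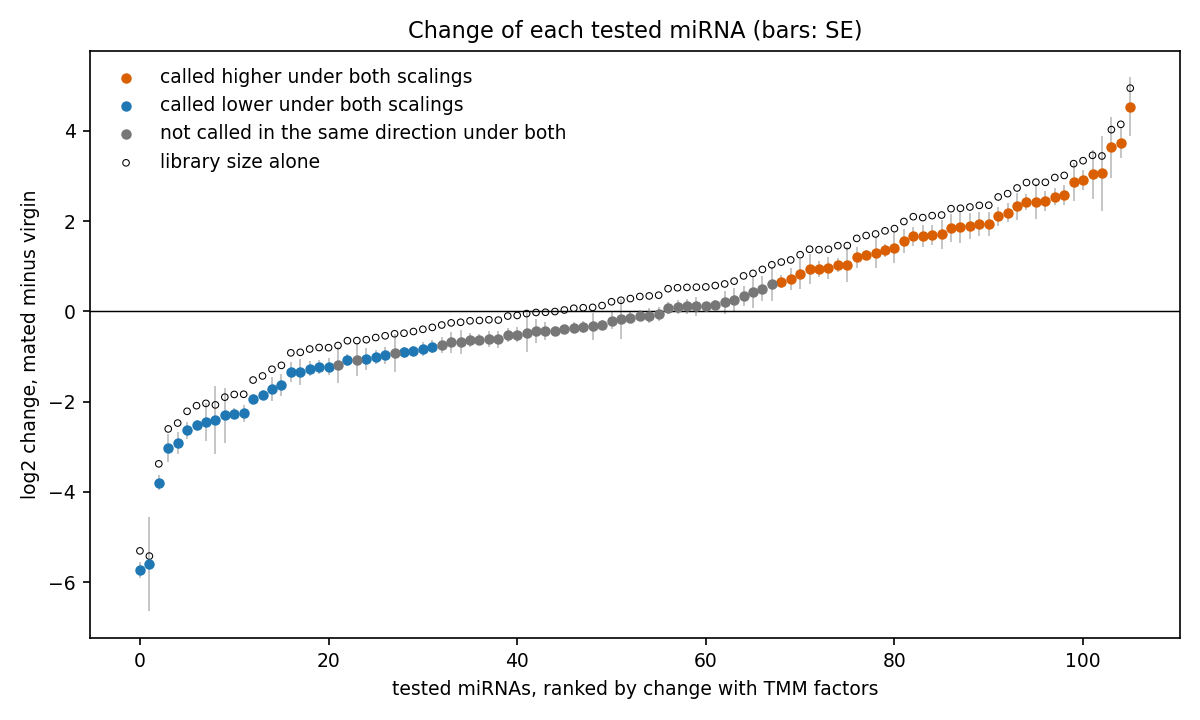
Log2 change (mated minus virgin) of each of the 106 tested miRNAs, ranked by the change with TMM factors (filled points, bars SE) and with library size alone (open points). The open points lie above the filled ones by 0.18 to 0.44, and the 38 orange and 29 blue points are the miRNAs called in the same direction on both scales.

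Without virgin queen 2, 95 miRNAs passed the count minimum and 63 were called in the same direction on both scales. Of the 38 rises, 37 were still tested and 35 called again. Of the 29 falls, 24 were still tested and 23 called again. The 3 that lost a call on one scale were miR-6047a and miR-9895 with TMM factors and miR-3718a with library size alone. In the thinned libraries 86 miRNAs were tested and 52 called on both scales, which took in 33 of the 34 rises and 18 of the 22 falls that could still be tested. Every one of the 67 also had the same sign in each mated group taken alone against the virgin queens, and 63, 62 and 63 of them were called with TMM factors in the egg-laying, inhibited and recovery group, where 71.7%, 66% and 67% of all tested miRNAs were called. These 3 comparisons share the virgin libraries, and the 67 were picked on the mean of the same 3 mated groups. The shared signs and the calls are thus partly set by that choice and are not independent evidence.

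The largest gain in share among neighbouring genes was that of a run made of miR-318, miR-2944, miR-9c, miR-279b, miR-3791 and miR-3478. Runs were taken from the order of miRNA genes in RefSeq (assembly Amel_HAv3.1), with at most 10 kb between the starts of neighbours, and this run is singled out after its values were seen. All 6 members were tested and all 6 were higher in mated queens on both scales (35.8% of all tested miRNAs were). Their summed share was 2.20%, 5.16% and 2.06% for virgin queens 1, 2 and 3. In the mated queens they took 18.4% to 23.8%, with a median of 20.4%, and the groups did not overlap.
Most of that came from a pair of them. miR-279b, a member of the miR-279 family that in Drosophila shapes neuron identity and cell migration, had 10086, 26646 and 8886 CPM (read counts scaled to the library total) in virgin queens 1, 2 and 3 and 91261 to 120211 (median 100474) in mated queens. miR-2944 had 9023, 17894 and 8442 CPM in the virgin queens and 72349 to 99380.0 (median 86236) in the mated ones. Both were far higher in every mated library, and virgin queen 2 was the highest of the virgin queens in both. The TMM log2 changes were 2.32 ± 0.29 (adjusted p = 1.28e-05) for miR-279b and 2.44 ± 0.22 (adjusted p = 4.04e-07) for miR-2944, and 2.73 ± 0.31 (adjusted p = 4.83e-06) and 2.86 ± 0.23 (adjusted p = 2.02e-07) with library size alone. The other members changed by 2.54 ± 0.19 (adjusted p = 8.96e-08) for miR-9c, 2.18 ± 0.21 (adjusted p = 9.27e-07) for miR-318, 1.90 ± 0.29 (adjusted p = 5.29e-05) for miR-3478 and 1.67 ± 0.24 (adjusted p = 3.68e-05) for miR-3791 with TMM factors. For miR-3791, whose sequence is shown above, the CPM was 2615, 6451 and 2928 in virgin queens and 13546 to 22963 (median 16029) in mated queens. The 6 are thus alike in direction and range from 1.67 to 2.54 on the log2 scale.

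**Figure D3:**
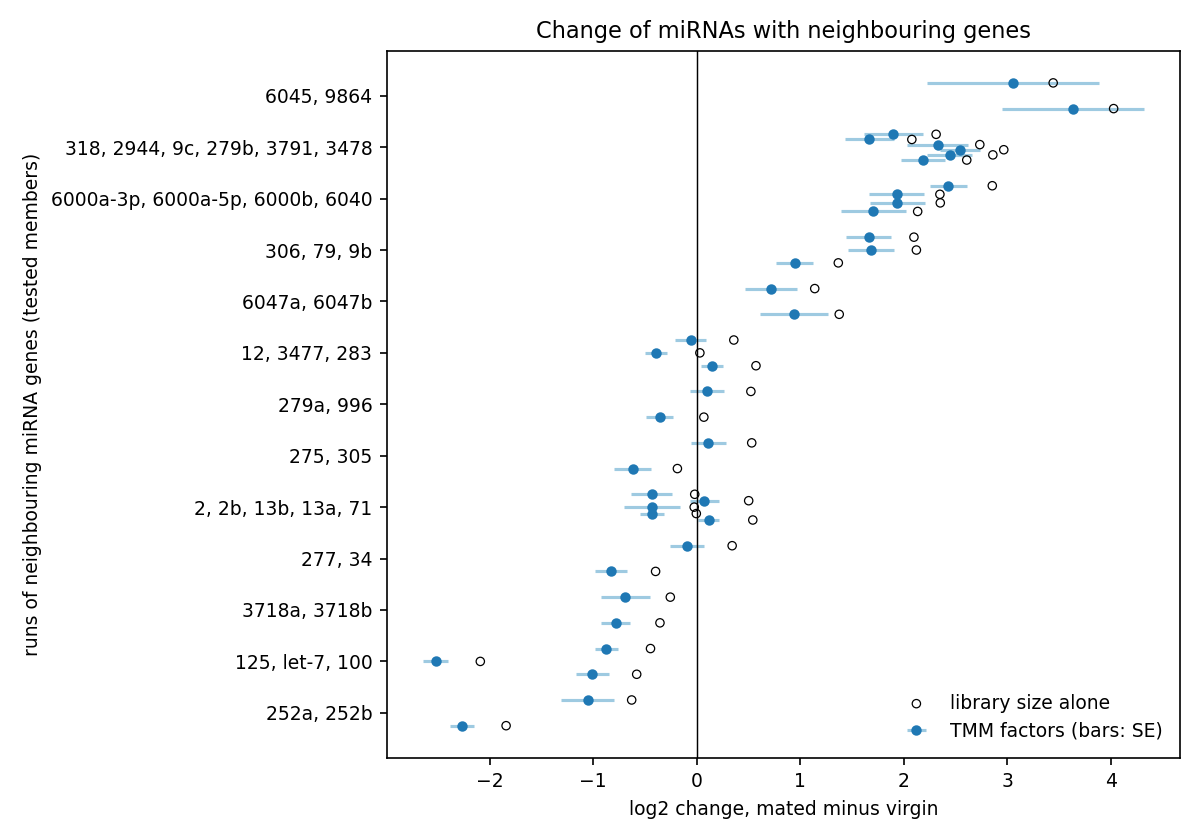
Log2 change (mated minus virgin) of the tested members of 13 runs of neighbouring miRNA genes, 1 run per row, with TMM factors (filled points, bars SE) and library size alone (open points). The members of 5 runs were all higher and those of 2 runs all lower on both scales, and no run held both.

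Across the genome, 162 of the 166 known miRNAs matched a RefSeq gene, and 13 runs held at least 2 tested miRNAs. In 5 runs every tested member was higher on both scales and in 2 every member was lower. No run held both a rise and a fall. Each remaining run held a tested member that was not called in the same direction on both scales. Of all tested miRNAs 35.8% were higher and 27.4% lower on both scales. The runs that rose were the miR-2944 run, miR-6045 with miR-9864, miR-6000a and miR-6000b with miR-6040, miR-306 with miR-79 and miR-9b, and miR-6047a with miR-6047b. The 2 that fell were miR-252a with miR-252b and the let-7 cluster. Of these, miR-252b passed the count minimum only through the virgin libraries, with 3 to 15 counts in mated libraries, and its groups overlapped on both scales. The groups of miR-6047a and of miR-6047b overlapped with TMM factors. Their TMM calls were lost in 5 of 27 and 7 of 28 alternative settings. Some neighbours had nearly the same counts: those of miR-6000a-5p and miR-6000b were equal in 9 libraries and differed by at most 1.01% in any, and those of miR-79 and miR-9b differed by at most 3.23%, so each of these pairs is close to a single measurement entered under 2 names, and how the authors' counting split their reads was not tested.

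The miR-6045 and miR-9864 pair depended most on virgin queen 2. For miR-9864 the CPM was 126, 2199 and 77.2 in virgin queens 1, 2 and 3 and 6926 to 11068 (median 8809) in mated queens, and for miR-6045 it was 38, 361 and 25.9 and 1938 to 2922 (median 2224). In both, virgin queen 2 lay between the other virgin queens and the mated ones. The TMM log2 changes of 3.06 ± 0.83 (adjusted p = 0.00456) and 3.63 ± 0.68 (adjusted p = 0.000332) became 5.93 (adjusted p = 3.64e-14) and 5.68 (adjusted p = 1.95e-14) without that library. The same held to a smaller degree for miR-6051 (2.86 ± 0.43, adjusted p = 5.29e-05, and 3.90, adjusted p = 2.75e-13, without it), miR-3747b (3.04 ± 0.54, adjusted p = 0.000219, and 4.51, adjusted p = 7.90e-11), miR-3756 (3.73 ± 0.33, adjusted p = 4.04e-07, and 4.31, adjusted p = 4.27e-13) and miR-10, which lies in the Hox gene complex of insects (1.30 ± 0.34, adjusted p = 0.00389, and 2.18, adjusted p = 7.63e-11). For miR-279b the change was 2.94 (adjusted p = 1.40e-13) without it. For no other of the 67 miRNAs that remained in the test did leaving out virgin queen 2 move the TMM change by more than 1.5-fold, and the calls of these 7 held. Virgin queen 2 was left out after its values were seen, which left 2 virgin libraries that lay closer together for these miRNAs. The smaller p-values without it are therefore not stronger evidence.

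**Figure D4:**
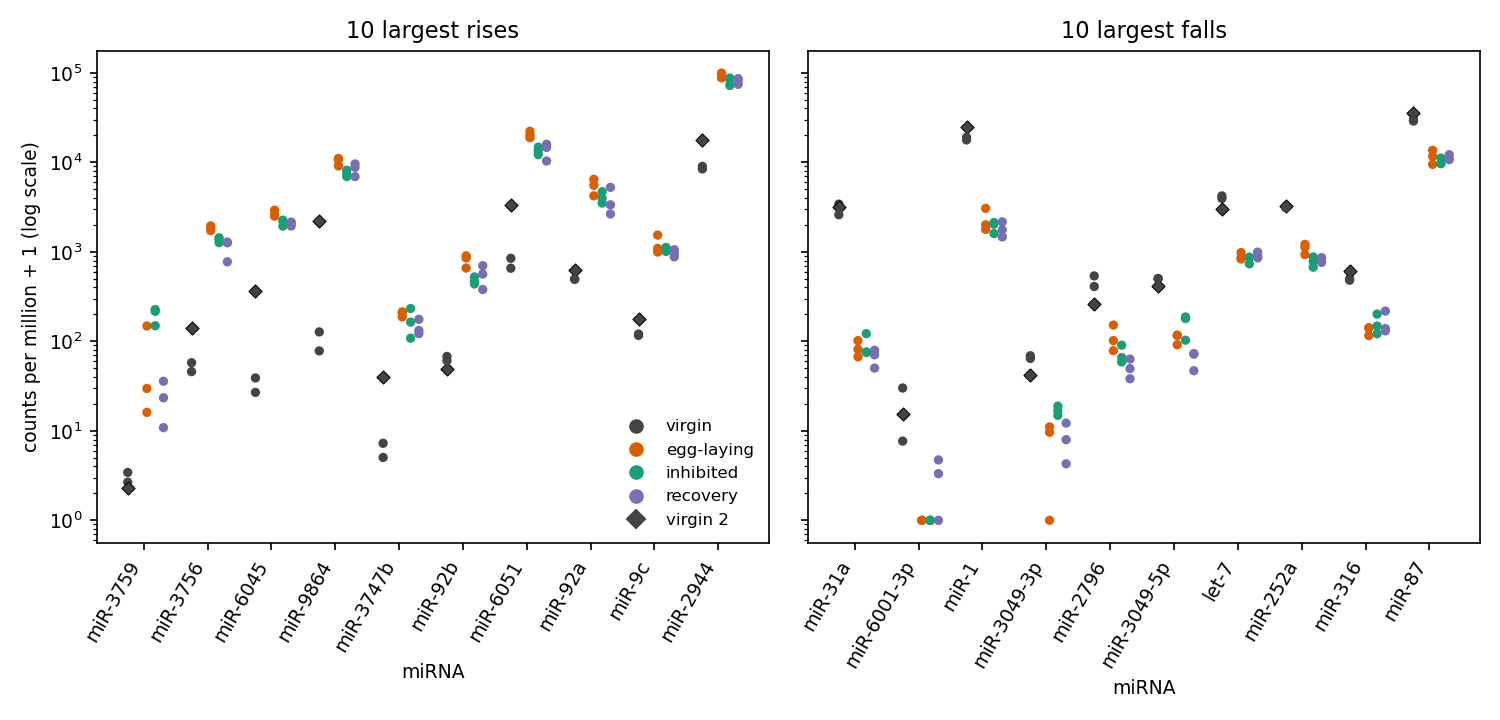
CPM plus 1, on a log axis, of the 10 largest rises (left) and the 10 largest falls (right) in each library, coloured by group, with virgin queen 2 as a diamond. The falls include miR-6001-3p (0 to 1 count in mated libraries) and miR-3049-3p (0 to 5), which passed the count minimum only through the virgin libraries. Virgin queen 2 lies between the other virgin queens and the mated queens for miR-9864 (2199 against 77.2 and 126), miR-6045, miR-3747b and miR-6051, but not for the falls miR-31a and miR-1.

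Named families also rose together. The 5 members of the group of miR-9, miR-79 and miR-306 were all higher on both scales (35.8% of all tested miRNAs were). Their median TMM log2 change was 1.66 against -0.12 over all tested miRNAs. They are not 5 separate measurements, as miR-79 and miR-9b had nearly the same counts. miR-306 is a genomic neighbour of these, and miR-9c is counted in the miR-2944 run too. The largest in level was miR-9a, which in Drosophila keeps sensory organ precursors from forming in excess. Its CPM was 17188, 16362 and 18794 in the virgin queens and 41691 to 74219.6 (median 52298) in the mated queens, and its change was 1.25 ± 0.12 (adjusted p = 7.93e-07). The values for miR-306, miR-79 and miR-9b were 0.95 ± 0.18 (adjusted p = 0.00034), 1.68 ± 0.22 (adjusted p = 1.77e-05) and 1.66 ± 0.22 (adjusted p = 1.87e-05). Both miR-92a and miR-92b rose by more than 4-fold. The CPM of miR-92a was 495, 631 and 493.2 in virgin and 2651 to 6467 (median 4227) in mated queens, with a change of 2.58 ± 0.22 (adjusted p = 3.30e-07), and that of miR-92b was 66.8, 48.3 and 59.8 and 379 to 901 (median 563.8), with a change of 2.90 ± 0.22 (adjusted p = 1.19e-07). The miR-263 pair, which protects bristle cells from death in Drosophila, rose by 1.35 ± 0.15 (adjusted p = 3.58e-06) for miR-263a and 2.10 ± 0.21 (adjusted p = 1.04e-06) for miR-263b.

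The family of miR-279 and miR-996 was split. On both scales miR-279b, miR-279c and miR-279d were higher, by 1.02 ± 0.15 (adjusted p = 5.42e-05) for miR-279c and 0.66 ± 0.14 (adjusted p = 0.000648) for miR-279d with TMM factors. The remaining pair changed call with the scale: miR-279a was -0.36 ± 0.13 (adjusted p = 0.0216) with TMM factors and 0.07 ± 0.13 (adjusted p = 0.644) with library size alone, and miR-996 was 0.10 ± 0.16 (adjusted p = 0.582) and 0.52 ± 0.17 (adjusted p = 0.0125). The CPM of miR-279a was 2853, 2429.8 and 3327 in virgin and 2587 to 3769 (median 2987) in mated queens, which overlap.

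Honey bee miRNAs numbered 37xx and 60xx formed the largest list. Of the 60 that were listed, 28 were tested, and 16 were higher and 3 lower on both scales (35.8% and 27.4% of all tested miRNAs were), with a median TMM log2 change of 0.89 against -0.12 over all tested miRNAs. Their summed share was 0.868%, 1.73% and 0.916% in virgin queens 1, 2 and 3 and 4.39% to 6.89% in mated queens. The most abundant of them beside miR-3791 was miR-6051, with 846, 3341 and 655 CPM in virgin and 10356 to 22260.4 (median 14795) in mated queens. For miR-6040 the values were 1411, 1678 and 1750.4 and 7729.6 to 15988 (median 11301), with a TMM change of 2.43 ± 0.18 (adjusted p = 8.37e-08). The highest fitted rise of all tested miRNAs was that of miR-3759, at 4.54 ± 0.64 (adjusted p = 3.48e-05), but its counts were low. It had 4, 2 and 6 counts in virgin queens 1, 2 and 3 and 3 to 63 counts in the mated queens, and pooled over libraries it was 43.2-fold higher in mated queens (95% exact counting interval 24.2 to 85.1). Its CPM spread widely within the mated queens, from 9.86 to 225.7 (median 34.8).

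Of the 12 predicted miRNAs 2 were tested. The one on chromosome LG2 from 14937352 to 14937464 on the minus strand (novel_53; assembly Amel_4.5) was lower, at -0.97 ± 0.19 (adjusted p = 0.000422), and the one on LG4 from 4810118 to 4810228 on the minus strand (novel_60) was higher, at 0.96 ± 0.24 (adjusted p = 0.00261). Whether these places lie in a gene was not analysed here.

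The largest fall was that of miR-31a. Its CPM was 3416, 3203 and 2597 in virgin queens 1, 2 and 3 and 49.3 to 121 (median 75.2) in mated queens, so that the lowest virgin library stood far above the highest mated one. The change was -5.73 ± 0.18 (adjusted p = 1.81e-11) with TMM factors and -5.30 ± 0.17 (adjusted p = 3.37e-11) with library size alone, or 53.2-fold and 39.5-fold lower, and -5.76 (adjusted p = 6.85e-17) without virgin queen 2. miR-6001-3p was at the limit of detection in mated queens: it had 16, 22 and 72 counts in virgin queens 1, 2 and 3 and 2 counts in all mated libraries together, 7 of which had 0. Relative to the library totals it was 20.4-fold lower in mated queens, with a 95% exact counting interval of 5.51 to 170.3, and it passed the count minimum only through the virgin libraries.

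Muscle miRNAs fell in mated queens. miR-1, the classic muscle miRNA of animals, had 17813, 25135 and 19089.9 CPM in virgin queens 1, 2 and 3 and 1465 to 3059.9 (median 2004) in mated queens, without overlap. Its change was -3.80 ± 0.17 (adjusted p = 6.55e-10) with TMM factors and -3.38 ± 0.17 (adjusted p = 3.95e-09) with library size alone. miR-133, the other muscle miRNA, had 229.9, 89.4 and 213 and 41.1 to 111 (median 74.1), which overlapped on this scale as virgin queen 2 lay within the mated range, and changed by -1.72 ± 0.27 (adjusted p = 6.96e-05) and -1.28 ± 0.25 (adjusted p = 0.000568). Their summed share was 1.80%, 2.52% and 1.93% in the virgin queens and 0.152% to 0.314% in the mated queens. The mRNA libraries of the same 4 groups, given as FPKM, showed muscle genes moving with them: of 8 muscle transcripts read, 7 were lower in every mated library than in every virgin library (18.9% of all 21596 transcripts were) and 1, TpnCIIa, was higher in every mated library (19.9%). Their summed level was 486 to 869 FPKM in virgin and 177 to 230.2 FPKM in mated libraries. The muscle genes read were Mlc2, myophilin and troponins, so other muscle genes were not covered. Only 1 transcript was read per gene, also where more were listed, as for TpnI (13) and TpnT (6). For the troponin gene TpnI the values were 120.7, 71.7 and 85.2 FPKM in virgin libraries 1, 2 and 3 and 3.18 to 5.83 in mated libraries. No muscle marker among the miRNAs was at 0. The germline markers vasa, nanos and aubergine were present in every mRNA library, with a summed level of 174 to 282.95 FPKM in virgin and 394 to 474 FPKM in mated libraries, and vasa alone was higher in every mated library. In the mRNA library numbered virgin 2, vasa stood at 174 FPKM against 96.7 and 87.2 in the other virgin libraries. Of 5 fat body transcripts none was lower in every mated library and 1 was higher, but 4 had a lower mean in mated libraries. Vg stood at 125.4, 39.1 and 347.1 FPKM in virgin libraries 1, 2 and 3 and at 1.70 to 54.0 in mated libraries. Its groups overlapped only through virgin library 2. The summed level of the 5 was 77.8 to 383 FPKM in virgin and 53.8 to 130.0 FPKM in mated libraries. The part of muscle or fat body carried over with the ovary in these results was not tested.

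**Figure D5:**
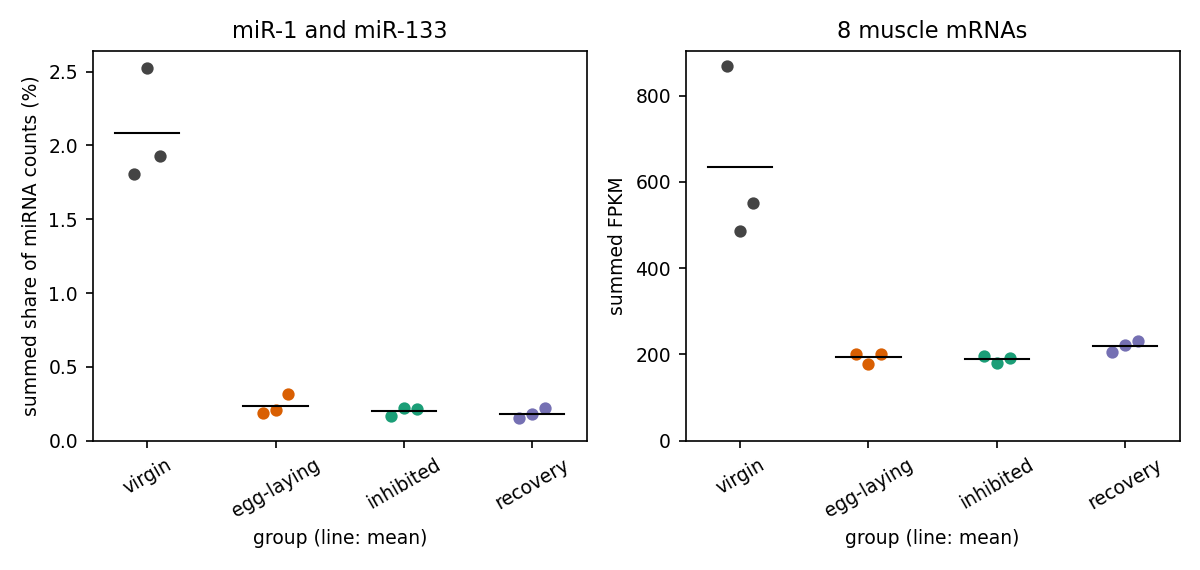
Left, summed share of miRNA counts (%) of miR-1 and miR-133 in each library by group. Right, summed FPKM of 8 muscle mRNAs in the mRNA libraries of the same groups; lines are means. All 9 mated libraries lie below the 3 virgin ones in both, at 0.152% to 0.314% and 177 to 230.2 FPKM.

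Among other tissue markers, the neural list was not uniform. miR-137 was lower (-1.34 ± 0.29, adjusted p = 0.000904), miR-932 was higher (1.84 ± 0.31, adjusted p = 0.000133) and miR-7, which in Drosophila also acts in germline stem cells, was not called on either scale (0.20 ± 0.26, adjusted p = 0.492). The neural miRNAs miR-124 and miR-219 had at most 4 and 10 counts in any library and were not tested. The gut marker miR-281 was lower with TMM factors only (-0.68 ± 0.26, adjusted p = 0.0294, against -0.24 ± 0.26, adjusted p = 0.419). The neural list summed to 0.467% to 1.06% of the counts in virgin and 0.746% to 1.37% in mated queens, and miR-281 was at 0.0148% to 0.0438% and 0.0204% to 0.0357%. These ranges overlapped.

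The let-7 cluster, which in Drosophila responds to ecdysone and times the passage to adult tissue, fell as a whole. let-7 had 3947, 3003 and 4215 CPM in virgin queens 1, 2 and 3 and 734 to 992 (median 862) in mated queens, and its change was -2.52 ± 0.12 (adjusted p = 1.56e-09). The other 2 members fell less, with changes of -0.87 ± 0.11 (adjusted p = 1.20e-05) for miR-100 and -1.01 ± 0.16 (adjusted p = 7.00e-05) for miR-125. Per library, miR-100 had 5652, 6881 and 5843 CPM in virgin and 3417 to 6361 (median 4376) in mated queens, and miR-125 had 751, 546 and 696 and 310.1 to 679 (median 448). Both overlapped between the groups on this scale, and let-7 did not. The cluster was part of a list of 8 miRNAs tied to ecdysone, juvenile hormone or insulin in insects, of which 6 were lower on both scales and none higher (27.4% and 35.8% of all tested miRNAs were), with a median TMM log2 change of -0.96 (-0.53 with library size alone).
The others that fell were bantam, which promotes growth and blocks cell death in Drosophila, miR-14, which acts in ecdysone signalling there, and miR-252a. bantam was the second most abundant miRNA of virgin ovaries. Its CPM was 77459.6, 110778 and 70849 in the virgin queens and 29302 to 34605 (median 32580.2) in the mated queens, with a change of -1.85 ± 0.12 (adjusted p = 2.35e-08) and -1.43 ± 0.13 (adjusted p = 4.28e-07) with library size alone. miR-252a had 3149.8, 3267 and 3119 CPM in the virgin and 673 to 1211 (median 858) in the mated queens and changed by -2.26 ± 0.12 (adjusted p = 2.68e-09). For miR-14 the change was -0.91 ± 0.12 (adjusted p = 1.77e-05). The last 2 of the list, miR-8 and miR-34, were -0.62 ± 0.12 (adjusted p = 0.000461) and -0.09 ± 0.16 (adjusted p = 0.608) with TMM factors and -0.20 ± 0.11 (adjusted p = 0.105) and 0.34 ± 0.19 (adjusted p = 0.112) with library size alone.

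Among the other falls, miR-87 had 29927, 36056 and 28928 CPM in virgin and 9506 to 13626 (median 11049.6) in mated queens and a change of -1.94 ± 0.12 (adjusted p = 1.04e-08). miR-316 changed by -2.26 ± 0.18 (adjusted p = 1.58e-07) and miR-2796 by -2.91 ± 0.25 (adjusted p = 3.02e-07), each without overlap between the groups. miR-184 was lower on both scales, at -1.22 ± 0.18 (adjusted p = 5.22e-05) and -0.80 ± 0.20 (adjusted p = 0.00318). Its CPM was 22819, 47844 and 27873 in virgin queens and 15595 to 26308 (median 18544) in mated queens. The groups overlapped on this scale, as egg-laying queen 3 exceeded virgin queen 1, but not with TMM factors. For miR-276 itself the change was -1.08 ± 0.14 (adjusted p = 1.33e-05) with TMM factors and -0.65 ± 0.11 (adjusted p = 0.000195) with library size alone.

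Both arms of a hairpin can be set against each other within a library, which needs no scaling. Of 6 hairpins with both arms listed, 2 reached 10 counts in both arms. For miR-6000a the log2 ratio of the 5p to the 3p arm was 3.29 ± 0.852 in virgin and 3.66 ± 0.561 in mated queens (SD), a difference of 0.38 (exact permutation test, adjusted p = 0.609 over the 2 hairpins). For miR-3049 it was 3.06 ± 0.241 and 3.28 ± 0.710, a difference of 0.22 (exact permutation test, adjusted p = 0.609). With a pseudocount of 5 counts in place of 0.5 it was 3.01 and 2.02, a difference of -0.99 (exact permutation test, adjusted p = 0.00909), so the difference in this ratio depends on the pseudocount. The 3p arm had 62 to 163 counts in virgin libraries, through which alone it passed the count minimum, and 0 to 5 in mated ones. The change of the 5p arm was -2.64 ± 0.19 (adjusted p = 8.37e-08).

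Several abundant ovary miRNAs were called on one scale only or on neither. miR-989 was -0.09 ± 0.12 (adjusted p = 0.481) with TMM factors and 0.33 ± 0.12 (adjusted p = 0.0284) with library size alone, and its CPM was 15764, 19798 and 15407 in virgin and 16569 to 24876 (median 21099) in mated queens. miR-283 was -0.06 ± 0.15 (adjusted p = 0.708) and 0.36 ± 0.15 (adjusted p = 0.0476), and miR-2 was 0.11 ± 0.10 (adjusted p = 0.321) and 0.54 ± 0.12 (adjusted p = 0.00141). None of the 5 members of the miR-2, miR-13 and miR-71 cluster was called in the same direction on both scales, nor was any of the miR-12, miR-283 and miR-3477 cluster or of miR-275 with miR-305, whose miR-275 is needed for egg development after a blood meal in Aedes mosquitoes. With TMM factors miR-275 was -0.62 ± 0.18 (adjusted p = 0.00678) and miR-305 0.11 ± 0.17 (adjusted p = 0.544). Of the cluster of miR-277, miR-317 and miR-34 only miR-277, a regulator of branched-chain amino acid breakdown in Drosophila, was called on both scales, at -0.83 ± 0.15 (adjusted p = 0.000292).

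The study listed miRNAs that earlier work had tied to worker ovaries, and because it drew that list from miRNAs that changed in these samples the counts below are not independent evidence of direction. Of 7 miRNAs tied to inactive worker ovaries 6 were lower and 1, miR-263a, was higher on both scales, with a median TMM log2 change of -1.08. Of 9 tied to activated worker ovaries 4 were higher and 2 lower on both scales, with a median of -0.35 (0.08 with library size alone). Over all tested miRNAs 35.8% were higher and 27.4% lower, and the shares of the activated list lie near these. The 4 were miR-279b, miR-2944, miR-306 and miR-92b, and the 2 were miR-14 and miR-252a.

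No miRNA was called among the 3 mated groups (0 of 106, edgeR quasi-likelihood F test, adjusted p; 0%), while 8 had an unadjusted p below 0.05. The lowest adjusted p, 0.0615, was that of miR-3759, whose CPM was 215.5, 148 and 226 in the inhibited queens, 15.1, 148 and 28.8 in the egg-laying queens and 9.86, 22.4 and 34.8 in the recovery queens. This result depended on single libraries. Without virgin queen 2, 5 miRNAs were called: miR-276 (adjusted p = 0.00546), miR-3759 (adjusted p = 0.00223), miR-3049-5p, miR-6000a-5p and miR-6000b (adjusted p = 0.0246 each). Without virgin queen 3 or egg-laying queen 2, miR-3759 alone was called. With all libraries the adjusted p of miR-276 was 0.327.

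The 72 miRNAs that were not tested held at most 0.0272% of the counts of any library. Of these, 62 were known and 10 predicted, and none exceeded 22 counts in a virgin or 18 counts in a mated library. Counts were seen in virgin libraries only for 12 of them and in mated libraries only for 6, and at these depths absence was not detectable.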

How the data were processed

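Ovary RNA was sequenced as small RNA and, separately, as long RNA. Per the study's methods, small RNA reads were single-end and aligned with Bowtie, known miRNAs came from miRBase and predicted ones from miREvo and mirdeep2. The authors deposited raw read counts per miRNA, which were used here, and TPM, which equalled CPM of the miRNA counts. They also deposited FPKM per transcript for the mRNA libraries, used only for markers. Columns were matched to groups by name.

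Each miRNA that reached 10 counts in 3 or more libraries was tested with the quasi-likelihood test of edgeR 4.0.16 in R 4.3.3, with a mean for each of 4 groups and the contrast of the mean of the 3 mated groups minus the virgin group, two-sided, with Benjamini-Hochberg adjustment over all 106 and a threshold of 0.05. TMM factors and library size alone were the 2 scalings. Exact permutation tests used every split of the libraries. Alternatives were DESeq2 1.42.0, limma 3.58.1 on log2(TPM + 1), other factors and filters, thinning, each mated group alone and each library left out. Counting intervals and library totals cover counting error only, as reads carried no molecular identifiers. Names were matched to RefSeq in Python 3.11.15. The named miRNAs are the 10 most abundant, the 10 largest rises and falls called on both scales without overlap, the members of the lists, and the 5 abundant ones that changed least, with miR-318 and miR-3478 added after their values were seen. The members and lists were chosen with earlier results of these data known.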

Additional observations from a re-analysis of the deposited data

Results flagged for a closer look

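In 84 values the 9 mated libraries were searched for a single library far from the others by the gap test of Dixon. Its critical ratio was 0.493, which chance alone passes in about 1 in 20 groups, and 6 passed. For these 6 the ratio was that of log2(CPM + 1), on which low counts lie far apart, and not that of the CPM printed here. Egg-laying queen 2, the shallowest library, was lowest for miR-137 at 15.5 CPM (2 counts), with the next library at 55.6. It had 0 counts of miR-3049-3p and of miR-6043, with the next libraries at 3.29 and 4.65 CPM and the highest mated values at 17.9 and 26.3 CPM. Egg-laying queen 3 was highest for miR-184 at 26308 CPM, with the next at 19874, and for miR-9c at 1539 CPM, with the next at 1119.7. Recovery queen 3 was lowest for miR-3756 at 773.6 CPM, with the next at 1262.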

How the results depend on the processing

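With TMM factors the count of called miRNAs ran from 64 (at least 100 counts) to 95 (no filter) over all alternatives, and with library size alone from 60 to 88, each within 1.5 times the main count. Leaving out 1 library at a time gave 70 to 85 and 63 to 81. DESeq2 called 82 and 80, and upper quartile factors 87, of which 33 were higher and 54 lower. For named miRNAs a turn of sign was counted only where the miRNA was called in either of the settings compared. The sign turned in this way for 5 with library size alone and with TPM in limma: miR-279a (0.069 and 0.077), miR-283 (0.36 and 0.38), miR-317 (0.081 and 0.074), miR-3477 (0.031 and 0.030) and miR-989 (0.33 and 0.33). By the same count it turned for miR-2 with upper quartile factors (-0.26). Uncalled miRNAs such as miR-34 changed sign too. Over all tested miRNAs the sign differed between TMM factors and library size alone for 11. The difference in the arm ratio of miR-3049 turned with a pseudocount of 5 (-0.99). The difference in the share of miR-276 ran from -25.2 to -17.4 percentage points with 1 library left out, and that in the effective number from 6.44 to 8.63, and it was 0.215 without miR-276. Among the mated groups 0 to 5 miRNAs were called with 1 library left out: 5 without virgin queen 2 and 1 each without virgin queen 3 and without egg-laying queen 2. Same-numbered libraries did not stand out, as the deviations of 4 of 18 same-numbered pairs correlated above 0.1 (-0.28 to 0.35). The 36 different-numbered pairs ranged from -0.37 to 0.36. Whether libraries of the same number shared a batch was not tested. A replicate block gave 83 and 79 calls, with no named call changed and 0 calls among the mated groups. Depth limits the rarest miRNAs, as the shallowest library held 128749 counts.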
